A study of Mus musculus with 21 samples.

Results

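The region described here is the lower-coordinate side of the mouse beta-globin locus on chromosome 7. It holds 3' HS-1, a DNase hypersensitive site beyond the last beta-globin gene, and the olfactory receptor flank below it. All positions of the deposited profiles from 110803000 to 110954000 (mm9) were taken, 152 in each of 7 libraries and 1064 in all, of 14771 positions in the 21 libraries of the series. The positions were taken by coordinate, with earlier results of these data known. Distances from 3' HS-1 are counted from the measured peaks of its own libraries.

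3' HS-1 and HS-62 are known as sites bound by CTCF, a protein that holds chromatin loops together, and lie at opposite ends of the globin cluster. HS-2 is an enhancer of the locus control region, which drives the globin genes in erythroid cells. In such cells the control region, the active genes and the outer sites are known to lie close together in the nucleus. Olfactory receptor genes are known for their use in sensory neurons of the nose and surround the globin cluster on both sides.

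Contacts were measured by 4C-seq, which reads out the DNA lying near 1 chosen fragment, the viewpoint, by crosslinking, cutting, ligation and inverse PCR. Fetal liver, the organ in which the fetus makes red blood cells, and fetal brain, where globin genes are silent, came from C57BL/6 embryos at 14.5 days post coitum, with organs of 10 to 12 embryos pooled. Viewpoints at 3' HS-1, at HS-2 and at the promoter of the adult globin gene Hbb-b1 were profiled in both organs, using DpnII and Csp6I. The HS-62 library came from fetal liver alone, with NlaIII and DpnII. Each combination of viewpoint and tissue has 1 library, so nothing was tested, and a whole organ is a mixture of cell types.

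Signals are given as relative signal, the deposited middle value of the 5 kb smoothing window divided by the mean of that library beyond 10 kb of its viewpoint. A relative signal of 1 is thus the average of that profile, taken over 575 positions for HS-62, whose profile is longer, and over 375 or 376 for the others. The viewpoints lie at 110.977 Mb (Hbb-b1 promoter), 111.006 Mb (HS-2), 110.9425 Mb (3' HS-1) and 111.058 Mb (HS-62), so they look at 3' HS-1 from 34.5, 63.5, 0 and 115.5 kb. The region was read in 5 segments. These are the globin-side edge (110.948 to 110.954 Mb), the 3' HS-1 window (110.938 to 110.947 Mb), and the flank 5 to 50 kb, 50 to 95 kb and over 95 kb below 3' HS-1. Positions within 10 kb of 3' HS-1 were left out for the 3' HS-1 libraries, which leaves 132 positions.

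In the gene order of GRCm38.p6, the first olfactory receptor genes below the globin cluster, next to Hbb-bt, are Olfr67, Olfr68, Olfr69, Olfr630, Olfr629, Olfr628 and Olfr243. The table's build is not that of the profiles, so the genes are named for their order only and no gene is placed at a position. A 4C profile sees DNA through the cut sites of its first enzyme. The 250 bases before the start of the 3 nearest genes are shown to let a reader see how unevenly such sites fall. Sequences are RefSeq's, 5′ to 3′ on the strand of the gene, the minus strand for all 3, and lie in GRCm38.p6 at chr7:103791831-103792080 (Olfr67), chr7:103778344-103778593 (Olfr68) and chr7:103771595-103771844 (Olfr69). Capitals mark GATC, the site of DpnII, and CATG, the site of NlaIII.
Olfr67: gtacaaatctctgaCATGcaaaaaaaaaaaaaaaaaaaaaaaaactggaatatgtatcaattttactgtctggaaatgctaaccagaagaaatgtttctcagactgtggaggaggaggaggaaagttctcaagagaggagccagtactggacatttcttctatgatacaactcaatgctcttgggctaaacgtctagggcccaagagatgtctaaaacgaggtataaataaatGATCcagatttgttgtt
Olfr68: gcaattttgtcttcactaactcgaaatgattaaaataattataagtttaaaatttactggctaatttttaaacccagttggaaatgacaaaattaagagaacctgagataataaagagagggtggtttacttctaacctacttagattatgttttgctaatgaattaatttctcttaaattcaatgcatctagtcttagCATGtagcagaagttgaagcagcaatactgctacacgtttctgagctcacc
Olfr69: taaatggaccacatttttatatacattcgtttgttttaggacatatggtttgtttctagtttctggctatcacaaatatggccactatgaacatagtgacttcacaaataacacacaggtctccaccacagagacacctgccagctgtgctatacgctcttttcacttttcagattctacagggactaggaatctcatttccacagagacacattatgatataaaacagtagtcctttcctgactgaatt
Olfr67 has 1 GATC and 1 CATG, Olfr68 has 1 CATG, and Olfr69 has neither. Both sites read the same on either strand and were counted with overlaps. Over the 7 genes, 4 hold GATC and 5 hold CATG, against 41.9% and 53.9% of 32851 promoter stretches of the same length in the table.

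How many positions carried signal varied by library. For the Hbb-b1 promoter and HS-2 this moved with the liver and brain differences that follow. For 3' HS-1 it did not, since liver had fewer empty positions than brain and the lower flank signal. In the flank, 28.1% of positions were empty (middle value under 1e-09) from the Hbb-b1 promoter in liver and 2.22% in brain. For HS-2 these shares were 71.1% in liver, against 2.22% in brain. For 3' HS-1 they were 0.769% in liver, against 2.31% in brain, and the HS-62 liver library had 0.741%. Empty positions were not particular to this flank. Outside the region the shares were 23.3% in liver and 8.52% in brain for Hbb-b1, and 43.5% and 9.87% for HS-2. In the olfactory receptor flank above HS-62 they were 38.8% and 69.4% in liver for these viewpoints, and 13.4% in brain for both. The flank of the Hbb-b1 liver library held 30 distinct values and that of the HS-2 liver library 25, against 82 and 81 in the brain libraries. The titles of these liver libraries and of the 3' HS-1 one carry longer numbers than those of the other beta-globin libraries. Whether they pool several runs is not given. Read depth is unknown, so for these viewpoints library fill and tissue cannot be told apart. One viewpoint of another locus, the Hba-a1 promoter, was profiled in liver with all and with 1/16 of the PCR template. Those profiles differed with an SD of 0.84 log2 units over 34 bins of 10 kb. This SD is the yardstick used below, although it comes from another locus and measures no spread between animals. It is also an SD of single 10 kb bins, while the means below cover segments of other lengths. It therefore does not give the spread of those means. The title of the full-template library also carries a longer number than that of its partner. Whether the pair differs by more than the amount of template is therefore not known.

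The region as a whole took a small part of the liver signal from the Hbb-b1 promoter and HS-2. It held 40.5% of the positions beyond 10 kb for these viewpoints. The liver library took 4.42% of its signal there and the brain library 38.5%, seen by the Hbb-b1 promoter. Seen by HS-2, these shares were 5.58% (liver) and 22.6% (brain). From 3' HS-1, where 35.1% of the positions lie in the region, it took 29.0% in liver and 55.4% in brain. The HS-62 library of liver gave 35.8% to the region over the span shared by all libraries. In these shares the liver libraries of the Hbb-b1 promoter and HS-2 stood far below HS-62 of the same tissue.

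**Figure D1:**
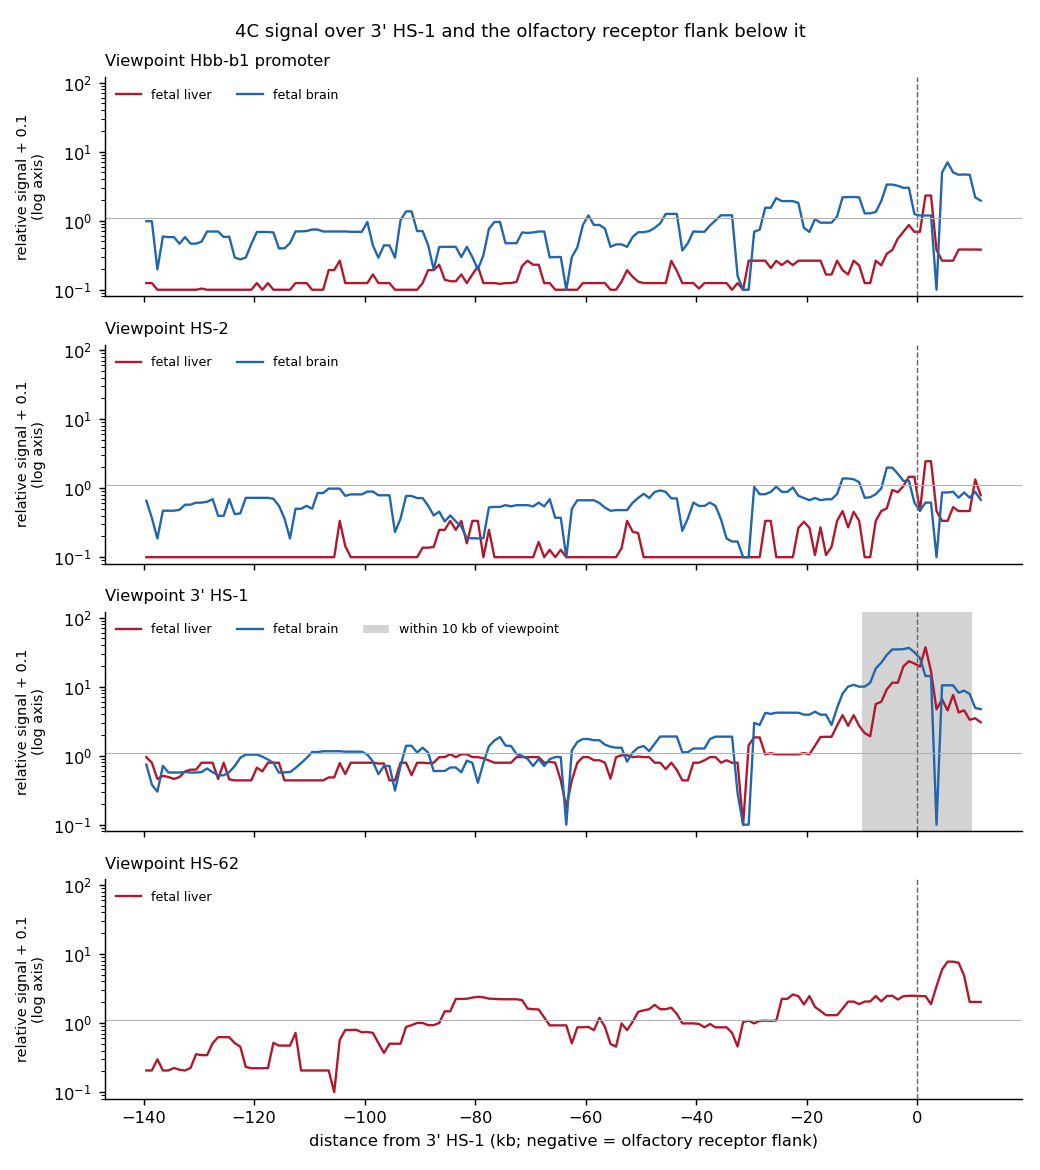
Relative signal plus 0.1 (log axis) at each position of the region, by distance from 3' HS-1 in kb, in fetal liver (red) and fetal brain (blue), 1 panel per viewpoint; the grey line is the library mean and the grey band marks 10 kb around the 3' HS-1 viewpoint. From the Hbb-b1 promoter and HS-2 the liver profile lies low over the flank and peaks 1.5 kb from 3' HS-1, where it reached 2.21 and 2.36.

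In the middle values of the 5 kb smoothing, the 3' HS-1 window was the high point of the region in liver from both globin viewpoints. With 20 kb smoothing the globin-side edge was higher, with 0.596 against 0.431 for Hbb-b1 and 1.05 against 0.488 for HS-2. With the higher value of each 5 kb window, divided by its own mean, the edge was also higher from HS-2 (1.64 against 1.37). Its 10 positions, seen from the Hbb-b1 promoter, ran from 0.164 to 2.21 in liver (median 0.590) and from 0 to 4.90 in brain (median 2.02). From HS-2 they ran from 0.236 to 2.36 in liver (median 0.905) and from 0 to 1.88 in brain (median 0.641). The ranges overlap in both pairs. The highest position of the region was 110.944 Mb in both liver libraries, which is also where the liver library of 3' HS-1 itself peaked. In brain that position had 1.09 in the Hbb-b1 library and 0.517 in the HS-2 library, and was not among the 3 maxima taken from either profile. HS-62 in liver had 2.35 there, within a window that ran from 1.78 to 5.84.

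The mean over the window was lower in liver from the Hbb-b1 promoter, with 0.813 in liver, against 2.14 in brain, or -1.30 on the log2 scale. This is beyond the template pair's SD, but it turned to 0.60 when each library was divided by a decay fitted on that side of the viewpoint alone, and to 2.87 when libraries were divided by their medians. From HS-2 the means were 1.10 in liver and 0.843 in brain, a difference of 0.35, within the SD, and its direction turned in 5 alternatives, down to -0.66 with the 20 kb window. The window values carry a wide spread. Averaged over the window for Hbb-b1, the lower deposited value was 0.107 in liver, against 0.668 in brain, and the higher one 6.93 in liver, against 5.73 in brain. Divided by the mean of the higher values themselves, the higher ones were 1.66 in liver, against 2.25 in brain.

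Set against its own neighbours, 3' HS-1 stood out in liver and not in brain. This contrast was chosen after the values were seen. It divides the window by the 7 positions on each side of it, so the scaling of a library enters only through the pseudocount. For Hbb-b1 the window averaged 0.813 and its neighbours 0.186 in liver, a log2 contrast of 1.68, while in brain the window averaged 2.14 and its neighbours 3.01, a contrast of -0.47. From HS-2 the window averaged 1.10 against 0.378 in liver, a contrast of 1.33, and 0.843 against 0.861 in brain, a contrast of -0.027. The window position 110.946 Mb was empty in each brain library, and its part in the contrast was not tested. Liver exceeded brain in contrast by 2.15 for Hbb-b1 and by 1.35 for HS-2. No such contrast was taken in the template pair, whose levels differed by as much as -2.17 in a single bin.

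The same contrast was taken at other positions of the lower side of each profile, as a description. For Hbb-b1 in liver none of 116 others was higher, the highest being 0.55. From HS-2 in liver 2 of 145 were higher, the highest being 1.36. In brain, 101 of 116 and 70 of 145 others were higher. All of the 116 and most of the 145 lie in the flank, where liver signal reached only 0.233 and 0.410. With a pseudocount of 0.1, contrasts between such low liver values are held small, unlike those in brain. No conclusion is therefore drawn from the liver ranks. HS-62 in liver, made with other enzymes, did not share the contrast. Its window averaged 2.72 and the neighbours 3.39, a contrast of -0.31. With the 20 kb window, wider than the 3' HS-1 window itself, the liver contrasts fell to -0.081 and -0.44, and with the higher value of each window they were 1.52 and 0.29.

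On the globin-side edge, liver and brain were farthest apart from the Hbb-b1 promoter. The 7 positions ran from 0.164 to 0.283 in liver and from 1.85 to 6.90 in brain, ranges that do not overlap on the scale of the library mean. They are neighbours that share reads through the 5 kb window, from 1 library each. Means were 0.248 in liver, against 4.19 in brain, or -3.62 on the log2 scale. Dividing by library medians shifts every difference of the pair alike, and moved its whole-profile median from -1.60 to 2.57. That shift is larger than the edge difference, whose direction thus rests on the scaling. Brain's highest position, 110.948 Mb with 6.90, had 0.164 in liver, the largest gap of the region at -4.73. The higher deposited value there was 5.11 in liver and 10.0 in brain, so the outer value of the liver window was well above its middle value. From HS-2 the edge averaged 0.527 in liver and 0.705 in brain, a difference of -0.36, within the SD.

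HS-62 in liver had its highest position of the region on the same edge, at 110.948 Mb with 7.65, and the edge averaged 4.74. The liver libraries thus differ from each other here by viewpoint: 0.248 for Hbb-b1 and 0.527 for HS-2, against 4.74 for HS-62. The level above the window exceeded that of 7 positions below it by 1.17 log2 units from HS-62. For Hbb-b1 the same step was 0.64 in liver and 1.15 in brain, and for HS-2 it was 0.93 in liver and -0.47 in brain. Steps at other positions of that side ranged from -1.82 to 2.11 for HS-62, from -0.52 to 1.08 in liver and -0.97 to 1.42 in brain for the Hbb-b1 promoter, and from -3.07 to 3.84 in liver and -1.71 to 1.89 in brain for HS-2. The step across 3' HS-1 lay within each of these ranges.

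**Figure D2:**
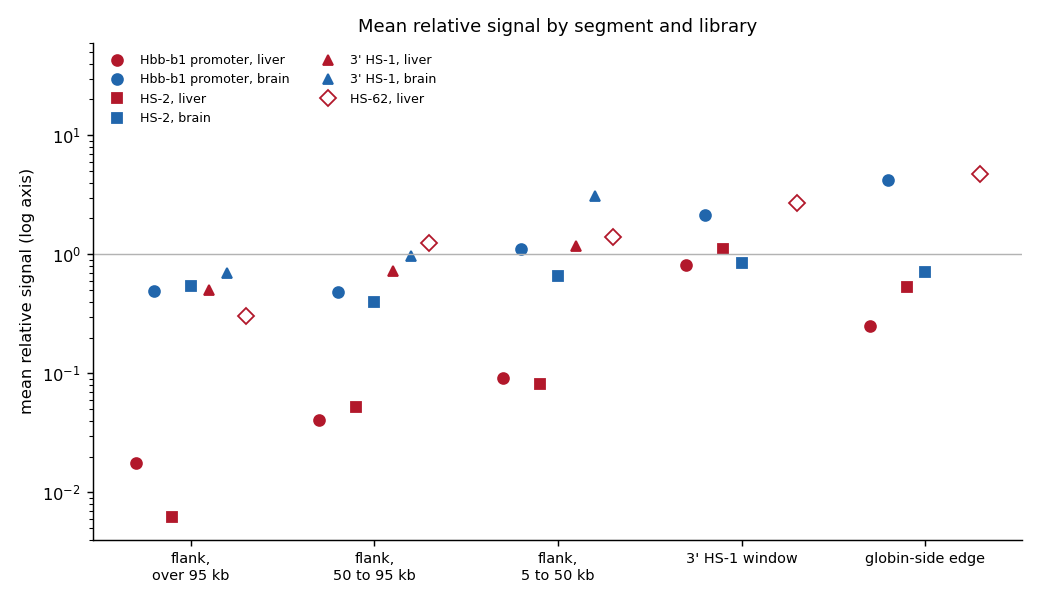
Mean relative signal (log axis) in the 5 segments of the region, 1 point per library, red for liver and blue for brain, with the shape giving the viewpoint; the 3' HS-1 libraries are shown for the flank alone. In the flank the liver points of the Hbb-b1 promoter and HS-2 lie at 0.0906 or below and those of brain at 0.395 or above.

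Over the olfactory receptor flank, liver was lower than brain from all 3 viewpoints profiled in both tissues, on the scale of the library mean. Seen from the Hbb-b1 promoter, the 135 positions ran from 0 to 0.233 in liver (median 0.0248) and from 0 to 3.24 in brain (median 0.592). From HS-2 they ran from 0 to 0.410 in liver (median 0, within the limit for empty positions) and from 0 to 1.88 in brain (median 0.518). From 3' HS-1 the 130 positions ran from 0 to 3.75 in liver (median 0.689) and from 0 to 10.5 in brain (median 1.02). No flank position reached the library mean in liver from the Hbb-b1 promoter or HS-2, against 26 and 5 in brain. The share reaching it over the whole profile was not taken. The whole-profile median was itself 0.0328 of the mean in liver and 0.592 in brain for Hbb-b1. For HS-2 that median was empty in liver and 0.621 of the mean in brain.

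Seen from the Hbb-b1 promoter, the flank mean was 0.0496 in liver, against 0.692 in brain, which is -2.41 on the log2 scale. For HS-2 the means were 0.0465 (liver) and 0.529 (brain), a difference of -2.10, which a decay fitted over both sides of the viewpoint brought to -0.23, within the SD, with 13 positions in place of 120 lower in liver by 2-fold. From 3' HS-1 they were 0.791 in liver and 1.53 in brain, a difference of -0.87, which is close to the template pair's SD of 0.84. A decay fitted on the lower side alone, which takes its level from this flank, left differences of -0.019, -0.036 and -0.0046. With library medians the Hbb-b1 difference turned to 1.77.

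At the level of positions, liver was lower by at least 2-fold at 137 of 152 from the Hbb-b1 promoter and higher at 2. Over the whole profile the shares were 66.7% lower and 7.47% higher. From HS-2, 120 of 152 were lower and 4 higher, against 66.9% and 7.47% over the whole profile. From 3' HS-1, 42 of 132 were lower and 4 higher, against 12.2% and 24.2%. Of the profile outside the region, 50.7%, 58.7% and 1.64% of positions were lower in liver by that fold.

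Scaling sets the level of these counts. Divided by library medians, liver was higher at 132 positions and lower at 0 from the Hbb-b1 promoter, with 94.4% of the whole profile higher. The median of the Hbb-b1 liver library is 0.0328 of its mean, against 0.592 in brain. From 3' HS-1 the same scaling gave 2 higher and 63 lower, and for HS-2 it could not be computed because the liver median is empty. The gap between region and whole profile is the same under each scaling by construction, since a scaling shifts every log2 difference of a pair alike. The median difference was -2.47 in the region and -1.60 over the whole profile from the Hbb-b1 promoter. It was -2.31 and -1.81 from HS-2, and -0.60 and 0.20 from 3' HS-1. The region thus lay 0.87, 0.50 and 0.80 log2 units below the whole profile, relative to which liver was low from each of the 3 viewpoints. The whole profile includes the region. Outside the region the median difference was -1.02 from the Hbb-b1 promoter, -1.31 from HS-2 and 0.59 from 3' HS-1.

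**Figure D3:**
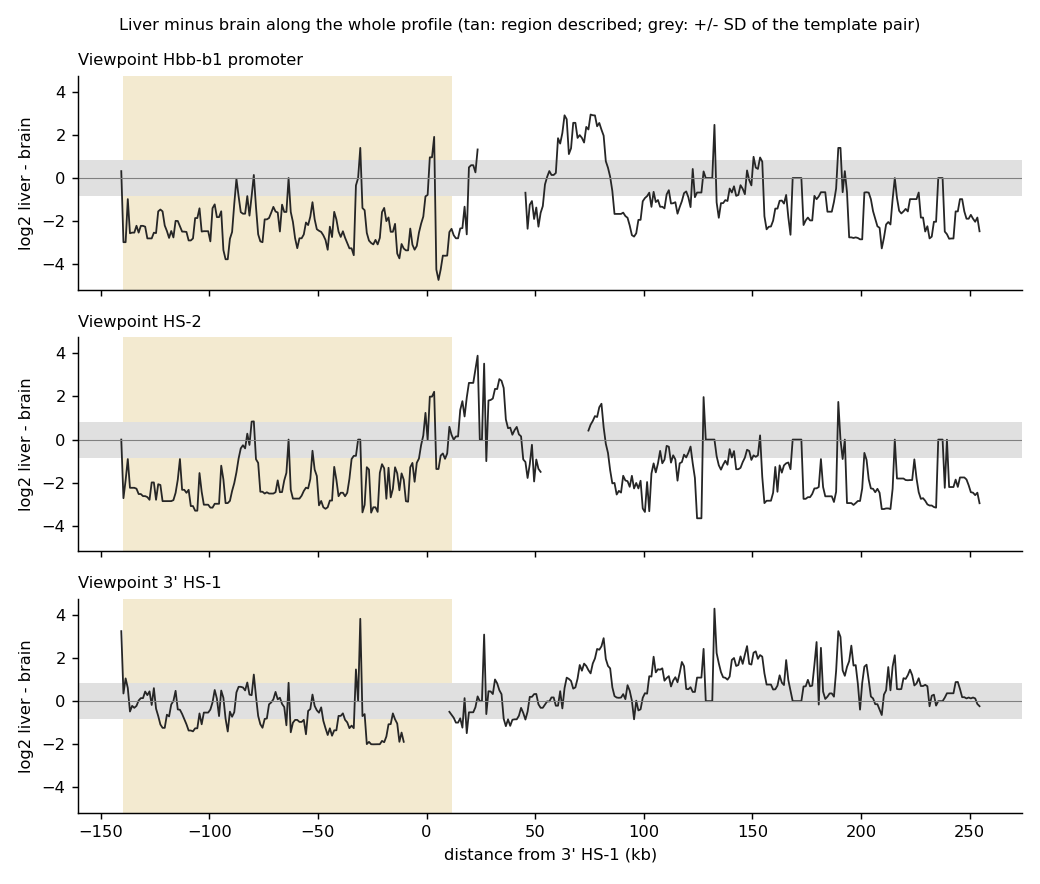
Log2 difference of liver minus brain at each position beyond 10 kb of the viewpoint, by distance from 3' HS-1, with the region in tan and the template pair's SD of 0.84 in grey. From 3' HS-1 the lowest differences lie within the region, down to -2.00, while the upper part of the profile lies mostly above 0.

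The drop along the flank differed with viewpoint and tissue. From 3' HS-1 the near flank, read only from beyond 10 kb to 50 kb (40 of its 45 positions), averaged 1.19 in liver and 3.11 in brain. The difference was -1.32. The middle part averaged 0.727 in liver and 0.963 in brain, and the far part 0.503 and 0.692, differences of -0.36 and -0.39 within the SD. Beyond 10 kb, the first position under the library mean lay 19.5 kb below 3' HS-1 in liver and 30.5 kb below it in brain, where the brain position is an empty one. The difference was thus beyond the SD of 10 kb bins near the site and within it beyond 50 kb. That SD does not give the spread of these longer means.

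From the Hbb-b1 promoter the 3 parts averaged 0.0906, 0.0405 and 0.0176 in liver, and 1.10, 0.479 and 0.493 in brain. From HS-2 they averaged 0.0807, 0.0525 and 0.00623 in liver and 0.655, 0.395 and 0.537 in brain. In brain the far part was not lower than the middle part at the 5 kb window, while at the 2 kb window it was, with 0.343 against 0.411 for Hbb-b1 and 0.360 against 0.376 for HS-2. The liver means in the far part rest on few filled positions, since 25 of 45 were empty for Hbb-b1 and 43 of 45 for HS-2.

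HS-62 saw the flank more strongly than the other globin-side viewpoints did in liver. Its 3 parts averaged 1.41, 1.25 and 0.300, with medians of 1.40, 0.903 and 0.243. Divided by its mean over the span shared with the other libraries, an alternative added after the values were seen, the 3 parts were 0.975, 0.868 and 0.208. The profile was uneven, with a low of 0.357 in the near part and 0.355 in the middle part. Its maxima below 3' HS-1 were 110.920 Mb with 2.49 and 110.863 Mb with 2.30, which lies 195 kb from HS-62. At 110.863 Mb the liver libraries had 0.118 from Hbb-b1, 0.236 from HS-2 and 0.850 from 3' HS-1, and the brain libraries 0.0971, 0.0870 and 0.304. Liver was higher than brain there from all 3 viewpoints, with differences of 0.84 for HS-2, the size of the template pair's SD, and 1.23 for 3' HS-1. From the Hbb-b1 promoter both values are near the pseudocount.

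Other maxima of the flank lay close together in brain. There, the Hbb-b1 promoter and HS-2 both had a maximum at 110.917 Mb, with 2.02 and 0.949, and 3' HS-1 had one at 110.918 Mb with 4.09. In liver the flank maxima of Hbb-b1 (0.164), HS-2 (0.236) and the second of 3' HS-1 (0.945) are values that recur along their profiles, so their positions are ties and are not compared. The positions where brain exceeded liver most were 110.850 Mb in the Hbb-b1 pair (0 in liver, 1.26 in brain), 110.917 Mb from HS-2 (0 in liver, 0.949 in brain) and 110.918 Mb from 3' HS-1 (0.945 in liver, 4.09 in brain).

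With the decay removed, profiles of the flank were more alike within a tissue than for 1 viewpoint across tissues. Spearman's rho across 130 positions, with each library's own decay on that side removed, was 0.48 to 0.65 among the 3 brain libraries. It was 0.49 between the Hbb-b1 promoter and HS-2 in liver, and 0.17 to 0.26 for the other liver pairs. Between liver and brain it was 0.031 for the Hbb-b1 promoter, -0.0081 for HS-2 and -0.099 for 3' HS-1. Without removing the decay these 3 were 0.32, 0.16 and 0.50. On that scale rho was 0.56 to 0.74 among the brain libraries and 0.62 to 0.78 among the liver libraries. It ranked unrounded values, so in the HS-2 liver library an empty value of 9.64e-34 stood above 0. Pearson's r of log2 (relative signal + 0.1) was 0.67 to 0.81 among the brain libraries and 0.42 to 0.61 among the liver libraries. Between liver and brain it was 0.34 for the Hbb-b1 promoter, 0.10 for HS-2 and 0.67 for 3' HS-1. Neighbouring positions share reads through the 5 kb window, and libraries of 1 enzyme share fragments, so the values are descriptions. Which positions held signal was shared more closely among the brain libraries than between brain and liver. At the 2 kb window all 3 brain libraries were empty at the same 62 of 152 positions of the region. The 3' HS-1 liver library had signal at 35 of these. Ties were many in the liver flank, where 28.1% of positions were empty seen by Hbb-b1 and 71.1% seen by HS-2. The 3' HS-1 pair had few empty positions (0.769% in liver, 2.31% in brain). Its liver library held 42 distinct values there, against 83 in brain. The 3 brain libraries shared their empty flank positions. How far ties and shared empty positions set rho was not tested.

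**Figure D4:**
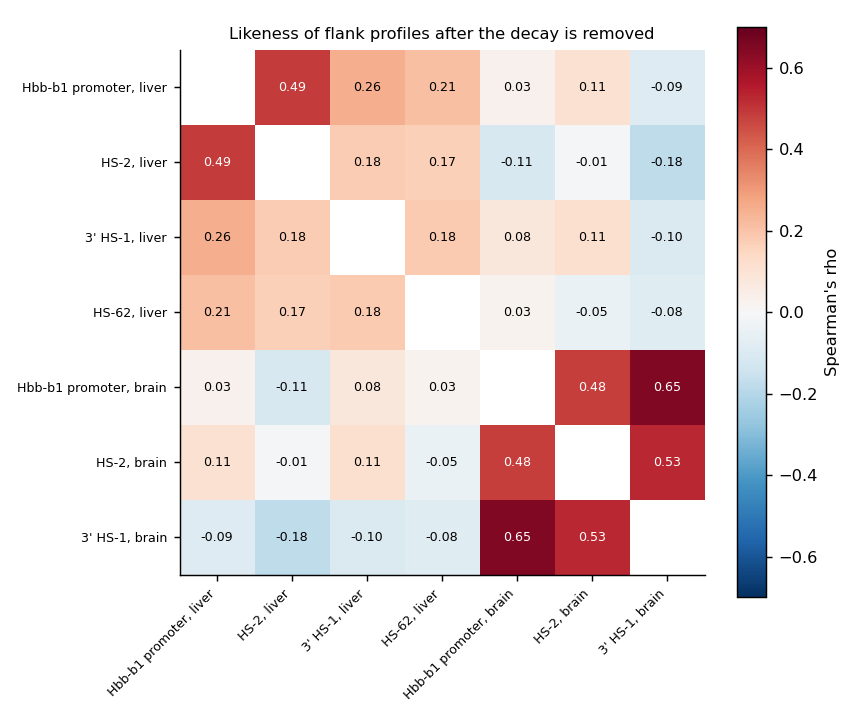
Spearman's rho between flank profiles of the 7 libraries across 130 positions after each library's decay is removed, red above 0 and blue below. The brain libraries form a block of 0.48 to 0.65, and the liver and brain libraries of 1 viewpoint lie between -0.099 and 0.031.

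Empty positions were shared in the same way. At the 5 kb window the 3 brain libraries were empty at the same 4 positions of the region, 110.879, 110.911, 110.912 and 110.946 Mb. The liver library of 3' HS-1 had signal at 110.946 Mb (4.57) and 110.912 Mb (1.31). At the 2 kb window all 3 brain libraries were empty at the same 62 of 152 positions. The liver library of 3' HS-1 was empty at 27, all of them among those 62. Among positions at least 20 kb apart, the gains of liver at 110.946 Mb in the Hbb-b1 pair (1.91) and the HS-2 pair (2.22), and at 110.912 Mb in the Hbb-b1 pair (1.40) and the 3' HS-1 pair (3.82), fall on positions empty in every brain library. Beside them, HS-2 gained 1.99 at 110.944 Mb, where brain was filled (0.517). What leaves these positions empty was not tested.

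Compared with the olfactory receptor flank above HS-62 (111.064 to 111.197 Mb, 134 positions, 129 of them beyond 10 kb of HS-62), the lower flank was the higher one in brain from the Hbb-b1 promoter and 3' HS-1, and close to it from HS-2. From the Hbb-b1 promoter brain had 0.692 in the lower and 0.323 in the upper flank, and liver had 0.0496 and 0.0906. From HS-2, which lies at like distances from both flanks, brain had 0.529 and 0.500 and liver 0.0465 and 0.0909. From 3' HS-1 brain had 1.53 in the lower and 0.271 in the upper flank, and liver 0.791 and 0.651. With 1 library each, none of these differences was tested. The upper flank begins 87, 58 and 121.5 kb from these viewpoints and the lower flank 40, 69 and 10.5 kb.

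HS-62 lies beside the upper flank, yet its liver library had 0.986 in the lower flank, 121 to 255 kb away, and 0.865 in the upper flank, 11 to 139 kb away. The 2 flanks thus stood at near levels from HS-62 in liver although the lower one is farther.

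**Figure D5:**
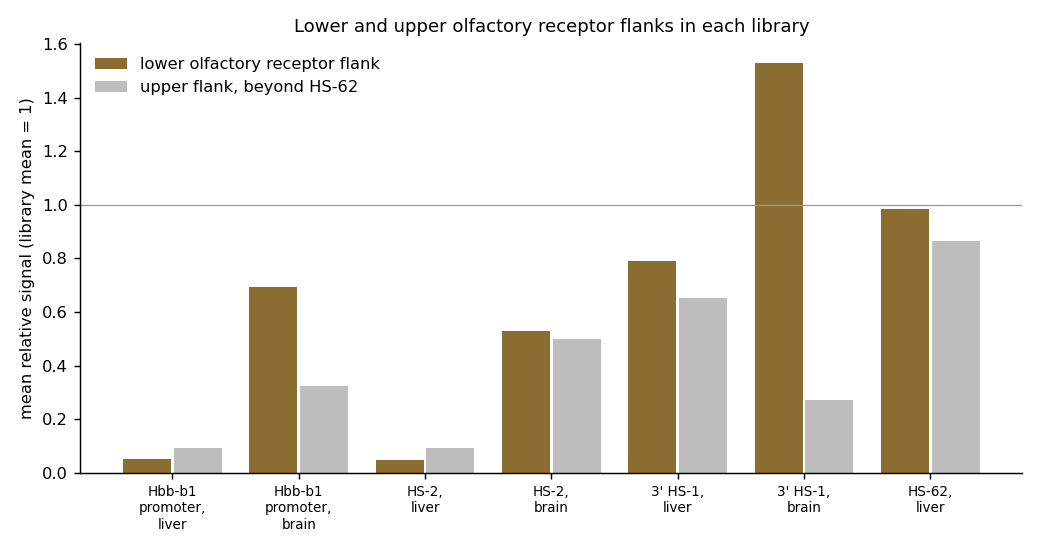
Mean relative signal (library mean = 1) over the lower olfactory receptor flank (brown) and the upper flank beyond HS-62 (grey) in each of the 7 libraries. The lower flank stands above the upper one from 3' HS-1 in brain (1.53 and 0.271) and both are low from the Hbb-b1 promoter and HS-2 in liver.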

How the data were processed

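The authors deposited 4C-seq signal in steps of 1000 bp (mm9, per the submitters' processing notes), as a middle, a higher and a lower value for 48 running windows of 2 to 49 kb. The deposited signal was treated as relative to the viewpoint, since the highest middle value is exactly 1 in 3 of the 7 libraries (the Hbb-b1 promoter in brain and 3' HS-1 in both tissues). The sources used here do not name the aligner, normalization, window quantiles or read depth, so no counting interval or floor was computed. The members and segments were chosen with earlier results of these data known.

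Profiles were read with Python 3.11.15 and pandas 2.3.3. Each viewpoint was placed at the median of its libraries' highest positions. Differences are log2 of (relative signal + 0.1), liver minus brain. Expected decays were fitted by isotonic regression (scikit-learn 1.9.0). Scripts were tested on simulated data. Named positions were the 3' HS-1 window, up to 3 maxima per library and up to 2 positions per direction, at least 20 kb apart. The alternatives were other windows, scalings, pseudocounts, decays and folds. The other 12 libraries of the series do not cover the region and were not used.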

Additional observations from a re-analysis of the deposited data

Results flagged for a closer look

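The liver minus brain difference over the 3' HS-1 window pointed in opposite directions from 2 viewpoints, with -1.30 for Hbb-b1 and 0.35 for HS-2. The HS-2 value was below 0 in 5 of its alternatives, at -0.32 with the signal as deposited, -0.095, -0.41 and -0.66 with smoothing windows of 2, 10 and 20 kb, and -0.25 with 10 kb to either side, where both viewpoints pointed the same way. The libraries are single, the second value lies within the template pair's SD of 0.84, and the difference between the viewpoints was not tested.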

How the results depend on the processing

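No paired analysis was possible because each viewpoint and tissue has 1 library and the labels carry no replicate numbers. The higher value of each window, and the contrast with its alternatives, were chosen after seeing the data. Over the 3' HS-1 window, the liver minus brain difference from the Hbb-b1 promoter (-1.30) turned to 0.60 with a decay fitted on the lower side and 2.87 with library medians, and moved to -2.31 with a decay over both sides, -0.42 with the higher value, -2.21 with the 20 kb window and -2.28 with 10 kb to either side. From HS-2 (0.35) it turned to -0.32 with the signal as deposited, -0.095, -0.41 and -0.66 with windows of 2, 10 and 20 kb, and -0.25 with 10 kb to either side. Over the flank, the decay of the lower side gave -0.019, -0.036 and -0.0046 for Hbb-b1, for HS-2 and for 3' HS-1, since that decay is fitted on the flank itself. From the Hbb-b1 promoter library medians gave 1.77 and a pseudocount of 1% gave -3.56. From HS-2 the decay over both sides gave -0.23, the higher value -1.20 and a pseudocount of 1% -3.25. The liver contrast of 3' HS-1 was -0.081 for Hbb-b1 and -0.44 for HS-2 with the 20 kb window, and 0.29 from HS-2 with the higher value.

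Counts of positions with liver higher by 2-fold, from the Hbb-b1 promoter (2), were 0 at 4-fold, 16 with the decay of the lower side, 7 with both sides, 132 with library medians, 4 with a pseudocount of 1%, and 10, 0 and 0 with windows of 2, 10 and 20 kb. Those with liver lower (137) were 10, 56 and 0 with the lower-side decay, the decay over both sides and library medians, and 77 with the 2 kb window. From HS-2, liver higher (4) was 1 at 4-fold, 23 with either decay, 7 with the higher value, and 9, 0 and 0 with windows of 2, 10 and 20 kb, and liver lower (120) was 12 and 13 with the lower-side and both-sides decay and 75 with the 2 kb window. From 3' HS-1, liver higher (4) was 1 at 4-fold, 8 with the lower-side decay, 2 with both sides, library medians or the higher value, and 32, 0 and 0 with windows of 2, 10 and 20 kb, and liver lower (42) was 1 at 4-fold and 1 with the lower-side decay.

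With the 20 kb window the HS-2 liver library had 0.488 in the 3' HS-1 window and 1.05 on the globin-side edge, the edge had 2.33 from HS-62 in liver, and from the Hbb-b1 promoter 0.596 in liver and 2.29 in brain. The HS-62 window had 1.39 with the 2 kb window. The step across 3' HS-1 was 0.33 from HS-62 and 0.27 from the Hbb-b1 promoter in brain with the 20 kb window. For HS-2, library medians could not be used because the liver median is empty. The cause of these moves was not tested, beyond the decay fitted on the flank itself. Depth is unknown, and empty positions limit the HS-2 liver values most.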
